A study of Mus musculus with 10 samples.

Results

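The phagocyte NADPH oxidase is the enzyme with which neutrophils and macrophages make superoxide, and 5 of its genes were followed here in the spleen of mice immunized with cartilage proteoglycan (PG). The members are Cybb, Cyba, Ncf1, Ncf4 and Rac2, chosen by gene symbol in the probe annotation of the array, and are 5 of the 18193 genes named there. They are measured by 10 of the 45037 probe sets on the array other than controls: 3 for Cybb, 3 for Ncf1, 2 for Rac2 and 1 each for Cyba and Ncf4. All 10 had a signal above the median of the array in each of the 10 arrays, and all 10 passed the filter on low signals.

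The spleens came from female BALB/c mice, with a single array and a separate animal for each sample. The groups were 2 old arthritic mice, aged 9 months each, 2 old non-arthritic mice, aged 7 and 5 months, 2 young arthritic mice, aged 5 and 4 months, and 4 young non-arthritic mice, aged 3, 3, 2 and 1 months. All of them had received the same agents, human cartilage PG in an emulsion with the adjuvant dimethyldioctadecyl-ammonium bromide (DDA), injected into the peritoneum, so non-arthritic mice are immunized mice without joint swelling and no unimmunized spleen was on the arrays used here. In both age classes the arthritic mice were older than the non-arthritic ones, and an age of 5 months occurs in an old and in a young group. The sample labels give an age alone, and in the paper the age of its groups is that at the first injection. RNA was taken from a piece of whole spleen, so fewer cells of a type and less RNA per cell cannot be told apart.

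In a resting phagocyte the oxidase lies apart in pieces. A membrane heterodimer of Cybb (gp91phox, the subunit that carries the electrons) and Cyba (p22phox) forms flavocytochrome b558, while Ncf1 (p47phox, the organizer) and Ncf4 (p40phox, which binds phosphatidylinositol 3-phosphate) stay in the cytosol. On stimulation Ncf1 is phosphorylated, the cytosolic subunits move to the membrane, and the small GTPase Rac2 joins them. The superoxide kills microbes, and loss of the complex causes chronic granulomatous disease in humans. In mice, a hypomorphic Ncf1 allele is known to make several models of autoimmune arthritis worse.

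Values are log2 signals after RMA, a method that corrects background, brings arrays to a shared distribution and summarises the probes of a probe set. A difference of 1 is a doubling, and levels of different probe sets are not set against each other because probes differ in brightness. Array medians lay between 6.88 and 6.96, correlations between arrays over all of these probe sets were 0.981 to 0.997, and no array repeated another. The spleen markers were bright in both conditions, with mean signals of 12.82 in arthritic and 12.67 in non-arthritic mice for the B cell receptor component Cd79a, 11.04 and 11.02 for the T cell receptor component Cd3e, and 11.86 and 11.94 for Spic, the transcription factor of red pulp macrophages. The bright end of the arrays differed by condition. The 95th percentile of an array was 11.37 to 11.50 in arthritic mice and 11.28 to 11.39 in non-arthritic mice, a mean difference of 0.12, whereas the medians differed by -0.01. Its part in the differences below was not tested, but for the brightest probe set of each oxidase gene the arthritis differences are also given after a further quantile normalization, which makes all arrays alike at every level. The genes of the other lists were not taken through it, except Rac1 and F13a1.

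In brief, every oxidase probe set had a higher fitted signal in arthritic mice than in others of equal age, by 0.17 to 0.54 on the log2 scale, and none passed the threshold of an adjusted p under 0.05. The two-sided comparison at equal age used limma with arthritis status and age in months as terms, over 23805 probe sets kept, with Benjamini-Hochberg adjustment. Of all probe sets tested, 2.26% passed. At an unadjusted p under 0.05, 8 of the 10 oxidase probe sets were higher in arthritic mice, against 19.2% of all probe sets. The median difference was 0.42 over the 10 probe sets and 0.25 over the 5 genes, each stood for by its brightest probe set, against 0.09 over all probe sets, of which 68.5% were higher. Equal age is that of the fit, since 5 months was the only age found in both conditions. The plain means of the brightest probe sets, with no age term, were 11.87 in arthritic and 11.57 in non-arthritic mice for Cybb. They were 13.44 and 13.32 for Cyba, 11.88 and 11.57 for Ncf1, 11.79 and 11.76 for Ncf4 and 13.30 and 13.08 for Rac2. The count of 8 rests on few mice. It was 2 without young arthritic replicate 2 (10.8% of all probe sets), 4 without old non-arthritic replicate 1 (11.4%) and 4 after quantile normalization (8.77%). Each p-value reflects only how much these mice varied, and the number of arrays limits the precision.

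**Figure D1:**
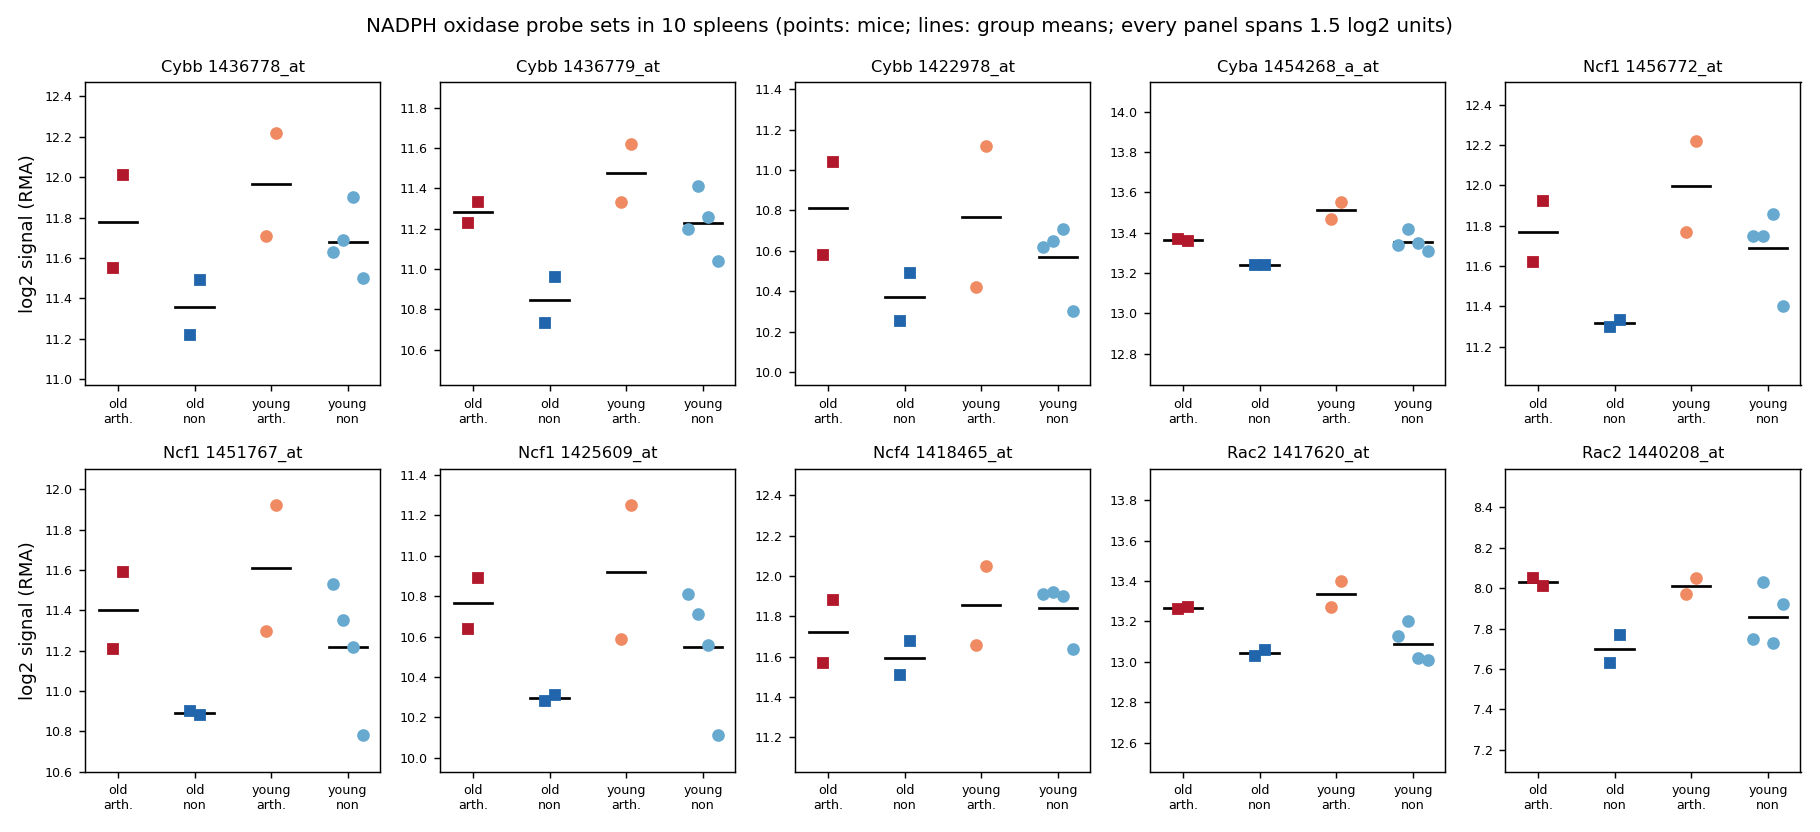
Log2 RMA signal (y-axis) of the 10 oxidase probe sets, 1 panel each, in the 4 groups (x-axis), where points are mice, lines are group means and every panel spans the same width. The 2 old arthritic mice lie above the 2 old non-arthritic mice in 9 of 10 panels, and young arthritic replicate 2 is the highest mouse in all 10.

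Cybb, the catalytic subunit, carried the letters of a PU.1 site in its promoter, which those of Ncf1 and Cyba lacked. Its promoter and that of Ncf1 are shown because these 2 genes had the most alike signals over the mice, and because PU.1 (Spi1), a master factor of myeloid cells, is known to act on oxidase genes together with interferon regulatory factors. RefSeq promoters, 250 bases before to 50 bases after the start of the gene, were at hand for 3 of the 5 members, in build GRCm38.p6. Capitals mark the stretch that holds both motifs searched on both strands, GAGGAA (the core bound by PU.1) and GGAA followed after 2 bases by GAAA (the composite element of ETS and IRF factors). Both are read on the strand opposite to the gene. The Cybb window lies at chrX:9469275-9469574 on the minus strand and the Ncf1 window at chr5:134229576-134229875 on the minus strand.
Cybb: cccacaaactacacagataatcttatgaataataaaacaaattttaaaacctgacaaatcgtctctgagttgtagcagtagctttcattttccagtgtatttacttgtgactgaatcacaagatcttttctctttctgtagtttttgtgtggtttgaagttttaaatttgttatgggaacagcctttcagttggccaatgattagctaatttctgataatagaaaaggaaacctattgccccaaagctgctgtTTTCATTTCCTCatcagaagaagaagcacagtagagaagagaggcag
Ncf1: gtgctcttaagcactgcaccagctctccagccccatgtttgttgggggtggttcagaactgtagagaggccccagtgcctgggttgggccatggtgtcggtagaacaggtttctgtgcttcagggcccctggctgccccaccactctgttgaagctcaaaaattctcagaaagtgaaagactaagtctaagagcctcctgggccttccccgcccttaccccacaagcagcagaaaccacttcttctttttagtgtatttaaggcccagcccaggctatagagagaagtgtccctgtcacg
The Cybb window had 1 match to each, overlapping, beginning at bases 10 and 4, counted from 1 at the start of the gene. The PU.1 core is found in 28.3% and the composite in 2.72% of 32851 promoters of this length. The Ncf1 and Cyba windows had no match, which says only that these letters are not in the 300 bases searched.

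For Cybb, the brightest probe set (1436778_at) read 11.55 and 12.01 in old arthritic mice, against 11.22 and 11.49 in old non-arthritic mice. It read 11.71 and 12.22 in young arthritic mice, against 11.63, 11.69, 11.90 and 11.50 in young non-arthritic mice. Both old arthritic mice were above both old non-arthritic mice, while in young mice the lower arthritic value lay inside the range of the non-arthritic ones. At equal age arthritic mice were higher by 0.51 (standard error 0.16, 1.43-fold, 95% interval 1.11 to 1.83, limma adjusted p = 0.104). Probe set 1436779_at, designed on the same transcript sequence, gave 0.48 (standard error 0.13, 1.40-fold), and its adjusted p of 0.0716 in limma was the smallest of the 10. The third, 1422978_at, gave 0.36 (standard error 0.19, 95% interval -0.06 to 0.78 on the log2 scale, limma adjusted p = 0.281). After quantile normalization the difference of the brightest was 0.35 (limma adjusted p = 0.307).

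Cyba, the smaller partner that stabilises Cybb in the membrane, varied least. Its 1 probe set (1454268_a_at) read 13.37 and 13.36 in old arthritic mice, against 13.24 and 13.24 in old non-arthritic mice. Young arthritic mice had 13.47 and 13.55, against 13.34, 13.42, 13.35 and 13.31 in young non-arthritic mice. The arthritic mice lay above the non-arthritic mice within both age classes, although the old arthritic values overlapped those of young non-arthritic mice. The standard deviation within groups was 0.04, the smallest of the 10 probe sets. The difference at equal age was 0.21 (standard error 0.07, 1.15-fold, limma adjusted p = 0.113). It was 0.04 after quantile normalization (limma adjusted p = 0.817).

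Ncf1 is the organizer of the complex. Its brightest probe set (1456772_at) read 11.62 and 11.92 in old arthritic mice, against 11.30 and 11.33 in old non-arthritic mice. In young arthritic mice it read 11.77 and 12.22, against 11.75, 11.75, 11.86 and 11.40 in young non-arthritic mice. Old non-arthritic mice were the lowest group, below all 4 young non-arthritic mice, and the young groups overlapped. At equal age the difference was 0.52 (standard error 0.16, 1.43-fold, 95% interval 1.12 to 1.83, limma adjusted p = 0.0985). The other probe sets, 1451767_at and 1425609_at, which were designed on 1 shared sequence, gave 0.54 (standard error 0.22) and 0.49 (standard error 0.20), with adjusted p-values of 0.173 and 0.193 in limma. These 2 separated the youngest mouse more, at 10.78 and 10.11 in young non-arthritic replicate 4, the lowest of all mice in both. The standard deviation within groups was 0.31 in 1451767_at, the largest of the 10, and 0.21 in 1456772_at. After quantile normalization the brightest gave 0.35 (limma adjusted p = 0.279).

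Ncf4, which binds a membrane lipid and sustains the oxidase on phagosomes, had the smallest fitted difference of the 10. Its probe set (1418465_at) read 11.57 and 11.88 in old arthritic mice, against 11.51 and 11.68 in old non-arthritic mice. Young arthritic mice had 11.66 and 12.05, against 11.91, 11.92, 11.90 and 11.64 in young non-arthritic mice. The groups overlapped in both age classes. The difference at equal age was 0.17 (standard error 0.13, 95% interval -0.13 to 0.46, limma adjusted p = 0.48), and -0.00 after quantile normalization. It was 0.05 without young arthritic replicate 2, 0.08 without old non-arthritic replicate 1 and 0.28 without young arthritic replicate 1. The interval thus includes no difference and also the sizes seen for Cyba and Rac2.

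Rac2 is the Rac GTPase of blood cells that the oxidase needs. Its brightest probe set (1417620_at) read 13.26 and 13.27 in old arthritic mice, against 13.03 and 13.06 in old non-arthritic mice. It read 13.27 and 13.40 in young arthritic mice, against 13.13, 13.20, 13.02 and 13.01 in young non-arthritic mice. All 4 arthritic mice lay above all 6 non-arthritic mice. This was so for 1 of the 10 oxidase probe sets, a share no larger than the 10.4% of all probe sets. The difference at equal age was 0.25 (standard error 0.08, 1.19-fold, 95% interval 1.06 to 1.34, limma adjusted p = 0.0965), and 0.08 after quantile normalization (limma adjusted p = 0.609). The dimmer 1440208_at, with 7.97 to 8.05 in arthritic and 7.63 to 8.03 in non-arthritic mice, gave 0.28 (standard error 0.10, limma adjusted p = 0.125).

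**Figure D2:**
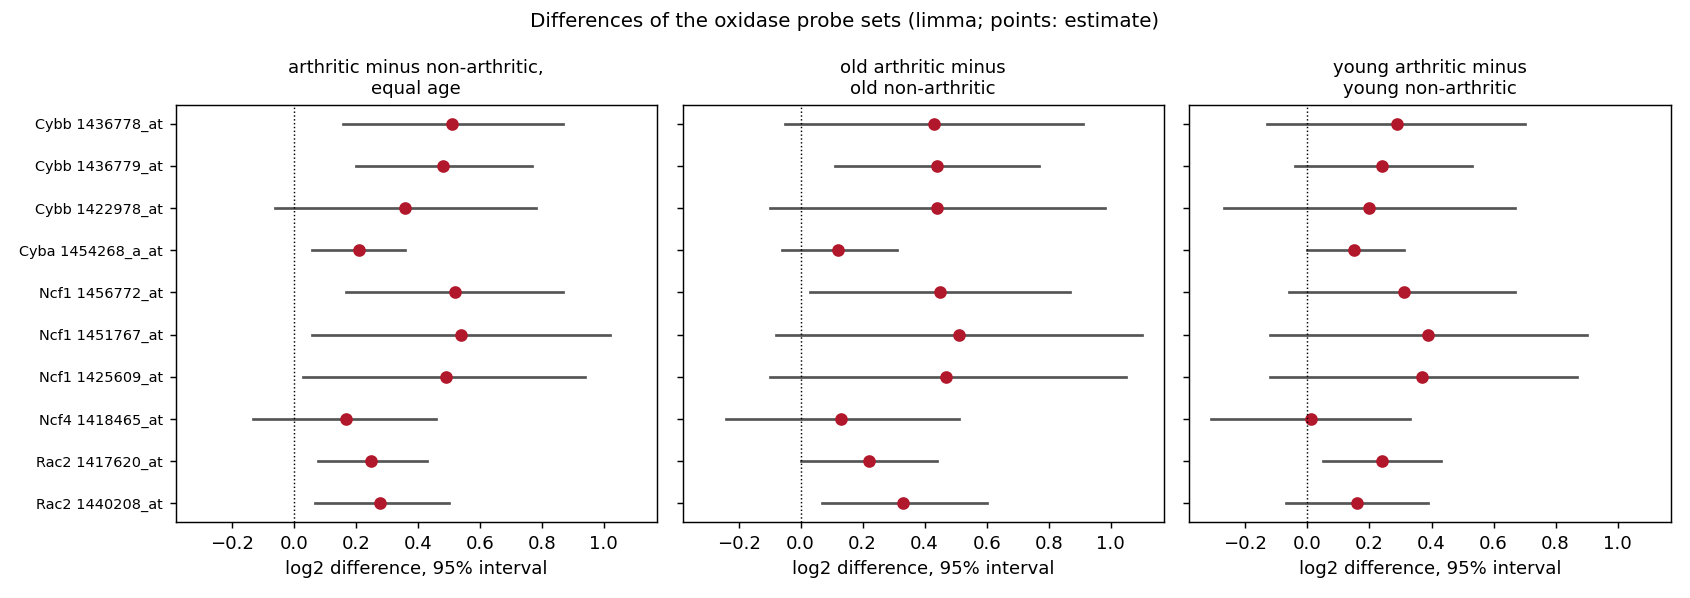
Log2 difference of arthritic minus non-arthritic mice (x-axis, points with 95% intervals from limma) for the 10 oxidase probe sets (y-axis) at equal age, in old mice and in young mice, on a shared axis. At equal age the points run from 0.17 for Ncf4 to 0.54 for Ncf1, and 8 of 10 intervals lie above 0.

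Within the old mice, the arthritic animals were 9 months and the non-arthritic ones 5 and 7 months old. There the oxidase probe sets were higher in arthritic mice by a median of 0.43, against 0.05 over all probe sets. The median over the 5 genes, each stood for by its brightest probe set, was 0.22. None of the 10 passed the threshold in the limma fit with a mean for each group, and 0.0714% of all probe sets did. At an unadjusted p under 0.05, 4 were higher (1436779_at of Cybb, 1456772_at of Ncf1 and both of Rac2), against 13.6% of all. In 9 of 10 both arthritic values exceeded both non-arthritic values, the exception being Ncf4, against 35.3% of all probe sets. By gene the differences were 0.43 for Cybb (standard error 0.21), 0.12 for Cyba (standard error 0.08), 0.45 for Ncf1 (standard error 0.19), 0.13 for Ncf4 (standard error 0.16) and 0.22 for Rac2 (standard error 0.10). The adjusted p-values of these 5 ran from 0.243 for Ncf1 to 0.676 for Ncf4 in limma. After quantile normalization they were 0.31 for Cybb, 0.02 for Cyba, 0.34 for Ncf1, 0.02 for Ncf4 and 0.10 for Rac2, with 2 of 10 higher at an unadjusted p under 0.05, against 10.1% of all probe sets. Without old arthritic replicate 2 the differences were 0.20 for Cybb and 0.30 for Ncf1. Without old arthritic replicate 1 they were 0.66 and 0.60.

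Within the young mice the median was 0.24 over the 10 probe sets and also over the 5 genes, against 0.09 over all probe sets. None passed, and 0.311% of all did. At an unadjusted p under 0.05 only 1417620_at of Rac2 was higher (0.24, standard error 0.08, limma adjusted p = 0.198), against 15.3% of all probe sets. Cyba and this Rac2 probe set were the 2 of 10 with no overlap, against 25.6%. Cybb had a difference of 0.29 (standard error 0.18) and Ncf1 0.31 (standard error 0.16). Without young arthritic replicate 1 these were 0.54 and 0.53, but they were 0.03 and 0.08 without young arthritic replicate 2. That mouse, 4 months old, had the highest signal in all 10 oxidase probe sets. Ncf4 was at 0.01 (standard error 0.14). After quantile normalization the young differences were 0.13 for Cybb, -0.00 for Cyba, 0.15 for Ncf1, -0.15 for Ncf4 and 0.09 for Rac2, and none of the 10 was higher at an unadjusted p under 0.05, against 6.5% of all probe sets. These young arthritic mice were 4 and 5 months old and the non-arthritic ones 1 to 3 months, so age and arthritis cannot be told apart inside this comparison.

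The arthritis differences of old and young mice did not differ beyond their error. The difference between them ran from -0.03 for Cyba to 0.24 for the Cybb probe set 1422978_at, positive in 8 of 10, with adjusted p-values of 1 in limma throughout. None of the 10 was called, and the share over all probe sets was 0%. None was higher at an unadjusted p under 0.05, against 0.748% of all. For Cybb the 95% interval of the difference, -0.49 to 0.78, includes 0 and also values larger than the effects themselves. The median was 0.13 over the oxidase probe sets and -0.03 over all.

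Between old and young mice free of arthritis, all 10 probe sets had a negative difference, with a median of -0.25, against -0.02 over all. None passed in limma, nor did any of all probe sets (0%). At an unadjusted p under 0.05, 2 of 10 were lower, against 2.10% of all, namely 1436779_at of Cybb (-0.38, standard error 0.13) and 1456772_at of Ncf1 (-0.37, standard error 0.16), each with an adjusted p of 0.997 in limma. In 4 of 10, both old mice lay below all 4 young mice (1436778_at and 1436779_at of Cybb, Cyba and 1456772_at of Ncf1), against 7.77% of all probe sets. Rac2 (1417620_at) had -0.04 (standard error 0.08), and 0.00 after quantile normalization. The youngest of the non-arthritic mice, 1 month old, was nevertheless low among the young. It was the lowest of the 4 in the brightest probe set of every oxidase gene, so these signals did not follow age in order.

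Per month of age over all 10 mice, with arthritis as a term, every oxidase probe set had a negative slope, with a median of -0.04 and a range of -0.06 to -0.01 on the log2 scale, against a median of -0.01 over all. None of the 10 passed, and 0.00420% of all probe sets did. Only 1436779_at of Cybb was lower at an unadjusted p under 0.05 (-0.06 per month, standard error 0.02, limma adjusted p = 0.472), against 6.85% of all probe sets. Because arthritic mice were older, the terms for age and arthritis were fitted together and lean on one another. Arthritic mice were also set against old non-arthritic mice, all of them aged 4 months or older, with no age term. The differences were 0.52 for Cybb, 0.20 for Cyba, 0.57 for Ncf1, 0.20 for Ncf4 and 0.25 for Rac2. The limma adjusted p-values were 0.106 to 0.441.

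**Figure D3:**
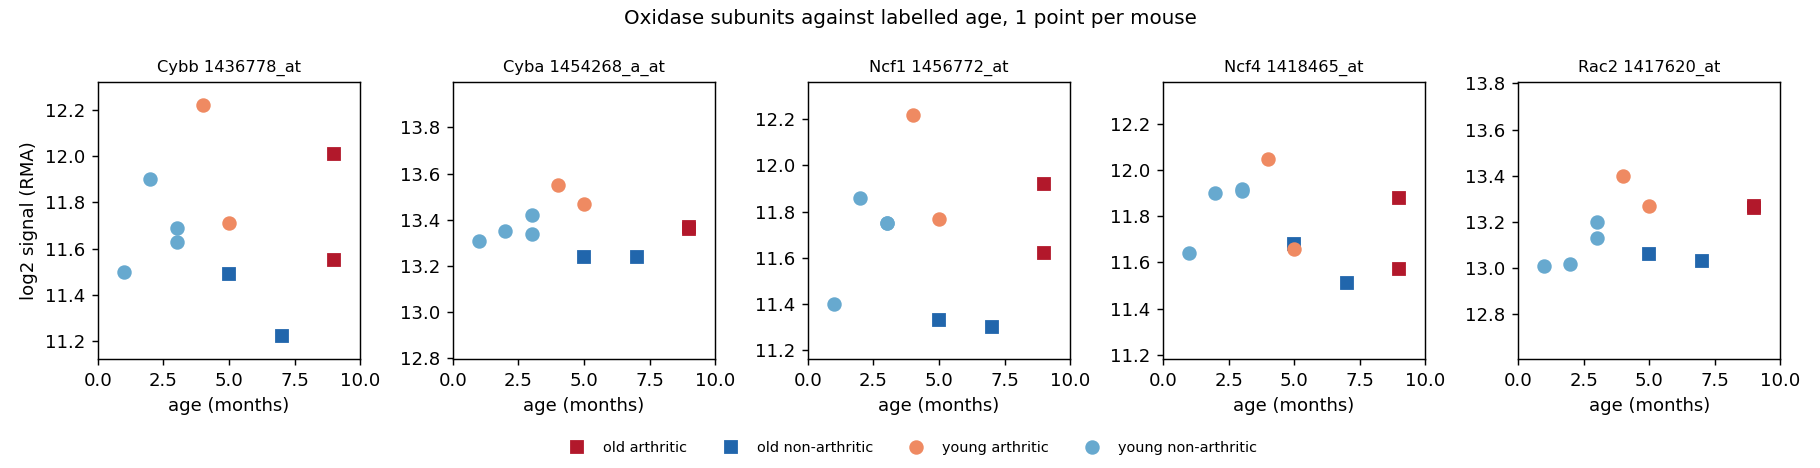
Log2 RMA signal (y-axis) of the brightest probe set of each oxidase gene against labelled age in months (x-axis), 1 point per mouse, with squares for old and circles for young mice, red shades for arthritic and blue shades for non-arthritic. Non-arthritic mice are highest at 2 or 3 months and lower at 5 and 7 months for Cybb, Cyba, Ncf1 and Ncf4.

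The members moved together over the mice to different degrees. Over the 10 arrays, which share the cell makeup of each spleen, Pearson's r was 0.95 between Cybb and Ncf1, 0.86 between Cyba and Ncf1, 0.84 between Cybb and Ncf4 and 0.83 between Ncf1 and Ncf4. Rac2 followed Cyba most closely (0.82) and Ncf4 least (0.42). Probe sets of the same gene had r of 0.79 to 0.99. These values describe 10 mice in 4 groups, with no test. Among 11869 other named genes, those most like Cybb were Fbp1, a gluconeogenic enzyme (0.974), Zmpste24, the protease that matures lamin A (0.961), and Lta4h, the enzyme that makes leukotriene B4 (0.960). Most like Ncf1 were Anxa3 (0.992), Lin28a (0.991) and Anxa1 (0.988). Anxa1 and Anxa3 are annexins abundant in neutrophils, and Lin28a, an RNA-binding protein, had a mean of 7.68 in arthritic and 6.73 in non-arthritic mice, below the array medians in non-arthritic mice. Most like Cyba were the scaffold gene Strn (0.966), the actin regulator Cap1 (0.963) and the small GTPase Rap2a (0.959), most like Ncf4 were Pigx (0.955), 4930438A08Rik (0.946) and Cep63 (0.943), and most like Rac2 were Tpd52l2 (0.973), Fbxl8 (0.971) and Prelid1 (0.965).

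Of 15 kept genes among 16 listed as partners and activators of the oxidase, 1 rose in arthritic mice at equal age and none fell. Of all probe sets, 2.26% passed. Rac1, the widely expressed relative of Rac2 that serves the oxidase in macrophages, was higher by 0.35 (standard error 0.08, limma adjusted p = 0.0472), with 13.33 to 13.61 in arthritic and 13.13 to 13.28 in non-arthritic mice. Its probe set is of a type that can also match related transcripts, and the mean over the Rac1 probe sets gave 0.21 (limma adjusted p = 0.111). The call was kept without old arthritic replicate 1 or young non-arthritic replicate 4 and lost without each of the other 8 mice, with limma adjusted p-values of 0.0509 to 0.275, the highest without young arthritic replicate 2. After quantile normalization the difference was 0.20 (limma adjusted p = 0.192). At an unadjusted p under 0.05 Prkcd, a kinase that phosphorylates Ncf1 (0.36, limma adjusted p = 0.0866), Arhgdib, which holds Rac proteins in the cytosol (0.29, limma adjusted p = 0.093), and Rap1b, a small GTPase (0.20, limma adjusted p = 0.147), were higher too. Cybc1, the chaperone of the Cybb and Cyba pair, had -0.01 (standard error 0.09) and the proton channel gene Hvcn1 0.20 (standard error 0.11), both named here outside the rule for their roles. With Rac1, 4 of the 15 listed genes were higher at an unadjusted p under 0.05, against 19.2% of all probe sets. The median of the list was 0.16, against 0.09 over all probe sets. Of 9 listed genes of the other NADPH oxidases, 2 were kept, Noxo1 (-0.13, standard error 0.09) and Duoxa1 (-0.17, standard error 0.09), and neither passed.

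Antioxidant enzymes remove the products of the oxidase. All 12 kept of 15 listed antioxidant genes had a higher fitted signal in arthritic mice, with a median of 0.20, but none passed and 4 had an unadjusted p under 0.05. Over all probe sets 68.5% were higher, 19.2% at that p, and the median was 0.09. Glutathione reductase (Gsr) had 0.58 (standard error 0.13, limma adjusted p = 0.0511), with 10.26 to 10.75 in arthritic and 9.85 to 10.21 in non-arthritic mice. Thioredoxin reductase (Txnrd1) had 0.28 (limma adjusted p = 0.07), the lipid peroxidase gene Gpx4 0.21 (limma adjusted p = 0.148) and the quinone reductase gene Nqo1 0.36 (limma adjusted p = 0.166). The mean signal of the list was 11.83 to 12.00 in arthritic mice and 11.49 to 11.78 in non-arthritic mice.

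None of 8 kept of 10 listed transcription factors of phagocytes passed, and 5 were higher at an unadjusted p under 0.05, against 19.2% of all probe sets. The list median was 0.36, against 0.09 over all. The 5 were Cebpd (0.71, limma adjusted p = 0.0681), Cebpb (0.37, limma adjusted p = 0.112), Cebpa (0.39, limma adjusted p = 0.124), Spi1, which encodes PU.1 (0.35, limma adjusted p = 0.137), and Gfi1, named outside the rule to complete the count (0.74, limma adjusted p = 0.201). Irf8, a partner of PU.1 at composite sites, had -0.07 (standard error 0.09). Spi1 read 10.92 to 11.23 in arthritic and 10.67 to 11.20 in non-arthritic mice.

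Markers of neutrophils, the cells richest in the oxidase, moved with the oxidase signals from mouse to mouse. Of 17 kept of 20 listed genes, 15 were higher in arthritic mice at equal age at an unadjusted p under 0.05, against 19.2% of all probe sets, with a median of 1.12, and none passed the adjusted threshold. The granule genes Mmp8 (1.56, limma adjusted p = 0.0622), Lcn2 (1.57, limma adjusted p = 0.0625), Ltf (1.36, limma adjusted p = 0.0787) and Chil3 (1.80, limma adjusted p = 0.0874) had the smallest p, while the chemokine receptor Cxcr2 of mature neutrophils had -0.15 (standard error 0.16) and the growth factor receptor Csf3r 0.20 (standard error 0.13). The mean signal of the list was 11.95 and 12.43 in old arthritic mice, against 10.99 and 11.16 in old non-arthritic mice. It was 11.97 and 12.72 in young arthritic mice, against 12.00, 11.94, 12.24 and 11.33 in young non-arthritic mice. The mean over the 5 oxidase genes was 12.27 and 12.49 in old arthritic mice, against 12.06 and 12.16 in old non-arthritic mice, and 12.38 and 12.69 in young arthritic mice, against 12.35, 12.39, 12.41 and 12.17 in young non-arthritic mice. The same mouse, young arthritic replicate 2, was highest in both, and both old non-arthritic mice and the 1-month-old mouse were the lowest 3 in both. This order was not particular to neutrophils. The same mice were highest and lowest in the means of the phagocyte transcription factors (10.67, against 10.10, 10.21 and 10.14). So they were in the monocyte list described below (10.08, against 9.79, 9.75 and 9.74). Without arthritis, old against young, the neutrophil list had a median of -1.04, with 13 of 17 genes lower at an unadjusted p under 0.05, against 2.10% of all probe sets, and none past the adjusted threshold. The part of neutrophil content in the oxidase differences was not tested.

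**Figure D4:**
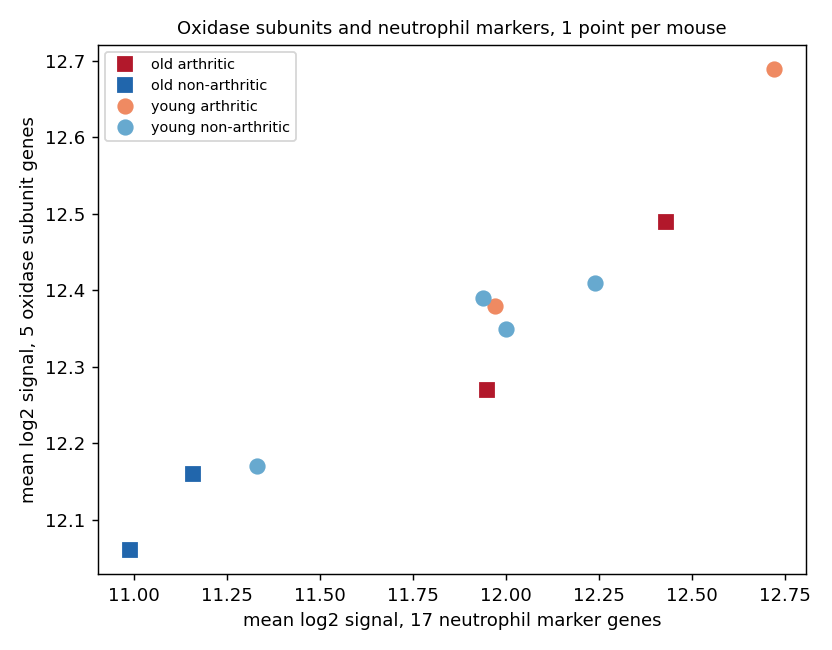
Mean log2 signal of the 5 oxidase genes (y-axis) against that of 17 neutrophil marker genes (x-axis), 1 point per mouse, with squares for old and circles for young mice, red shades for arthritic and blue shades for non-arthritic. The old non-arthritic mice lie lowest on both axes, at 10.99 and 11.16 for the markers, and young arthritic replicate 2 lies highest, at 12.72 for the markers and 12.69 for the oxidase.

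The lists of other cell types had smaller medians than that of neutrophils. For macrophages, 15 of 16 listed genes were kept, with a median of 0.07 and a mean signal of 11.72 to 12.01 in arthritic and 11.84 to 11.93 in non-arthritic mice. Within old mice the macrophage median was -0.14, with 12 of 15 genes lower in arthritic mice, whereas 58.6% of all probe sets were higher. Within young mice the macrophage median was 0.11, with 13 of 15 higher, against 69.3% of all probe sets. At an unadjusted p under 0.05, 4 of 15 were lower in old mice and 3 of 15 higher in young mice. Of all 23805 probe sets, 4433 had such a p in old mice, 3243 of them higher. In young mice 15.3% of all were higher at that p. None of the macrophage genes passed in either, against 0.0714% of all probe sets in old and 0.311% in young mice. At equal age none passed, and 3 were higher at an unadjusted p under 0.05, a share near the 19.2% of all probe sets. These were the lysosomal gene Cd68 (0.30, limma adjusted p = 0.104), the lysozyme gene Lyz2 (0.21, limma adjusted p = 0.117) and the complement gene C1qc (0.19, limma adjusted p = 0.178). Siglec1, which marks marginal metallophilic macrophages, had -0.18 (limma adjusted p = 0.304). Among 7 kept of 8 listed monocyte genes, F13a1, a coagulation factor subunit gene of monocytes, rose by 0.82 (standard error 0.18, limma adjusted p = 0.049), with 10.37 to 11.17 in arthritic and 9.89 to 10.77 in non-arthritic mice. The call was kept without old arthritic replicate 1 or young non-arthritic replicates 3 or 4 and lost without each of the other 7 mice, with limma adjusted p-values of 0.056 to 0.28, the highest without young arthritic replicate 2. After quantile normalization the difference was 0.67 (limma adjusted p = 0.112). The chemokine receptor Ccr2 had 0.37 (limma adjusted p = 0.137), Nr4a1 0.18 (limma adjusted p = 0.328) and Fcgr4 0.17 (limma adjusted p = 0.409). The monocyte list had a median of 0.17, with 5 genes higher. The 2 lower ones were Treml4 (-0.17) and Ace (-0.01), both named outside the rule. Of the 7, 1 passed, against 2.26% of all probe sets, and 2 were higher at an unadjusted p under 0.05, against 19.2%. Medians were -0.05 for 7 dendritic cell, -0.01 for 8 B cell, -0.01 for 8 T cell and 0.19 for 7 erythroid genes, and none of these passed.

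**Figure D5:**
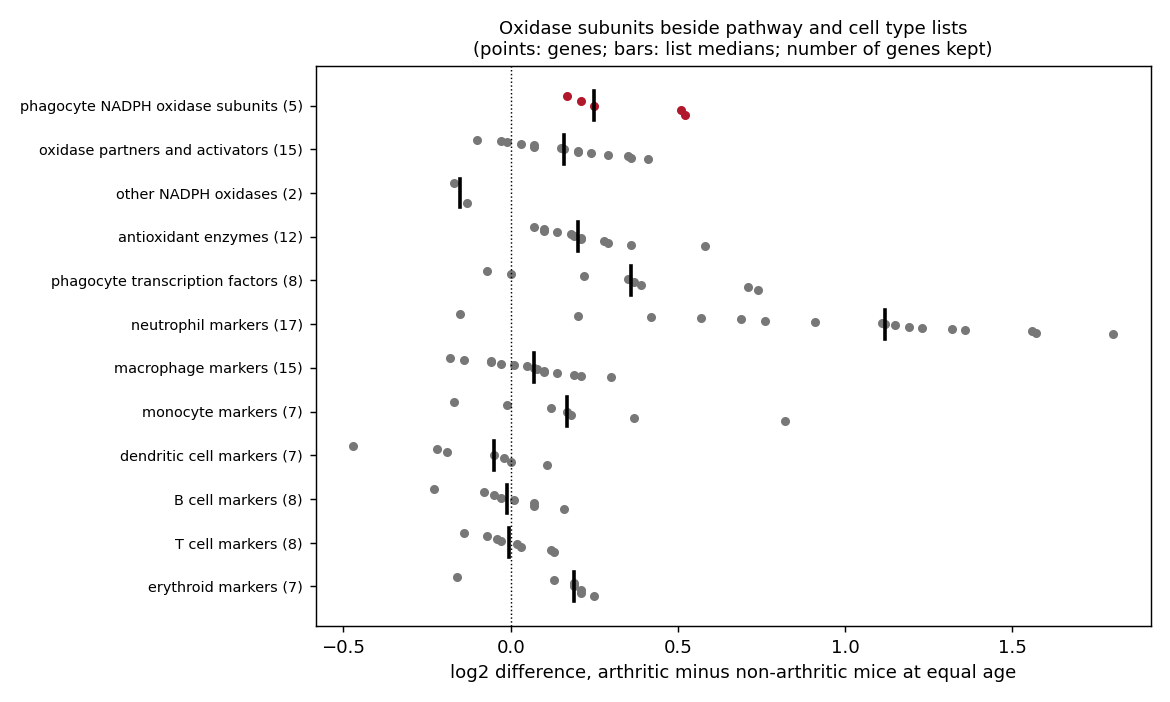
Log2 difference, arthritic minus non-arthritic at equal age (x-axis), for the genes of each list (y-axis, number of genes kept in brackets), where points are genes and bars are list medians. The oxidase genes lie at 0.17 to 0.52 with a median of 0.25, the neutrophil markers at a median of 1.12 and the B and T cell markers at -0.01.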

How the data were processed

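The deposited table holds log2 signals of 10 spleen arrays, made by the authors with RMA as the submitters' processing notes name it (version not given in the sources used here). Since the arrays are not described in the paper, no method of it was followed. Of 45101 rows, 64 control rows were left out. The platform table gives 1 gene symbol for 34945 of the 45037 that remain, several for 932 and none for 9160, and only the first kind was named. A probe set was kept if 2 or more arrays had it above the array's median (23805, with 11870 named genes). Groups come from the sample labels.

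Linear models came from limma 3.58.1 under R 4.3.3 (lmFit, then eBayes, two-sided, Benjamini-Hochberg adjusted p under 0.05 over all probe sets kept). One fit had arthritis and age in months as terms (7 residual degrees of freedom), the other a mean for each group (6). Promoters and gene starts are from RefSeq, build GRCm38.p6. The fits were tested on simulated data. Alternatives covered the filter, centring and quantile normalization, the spread estimate, array weights, the replicate block, the arrays in the fit, probe set means and leaving out each array. Named genes are the members and, of each list, those past the threshold and up to 4 with the smallest p at equal age, and the 3 genes most correlated with each member. Also named, outside this rule, are Cd79a, Cd3e, Spic, Irf8, Cxcr2 and Csf3r, and the genes marked so in the text. The members and lists were chosen with earlier results of these data known. Figures were drawn with matplotlib 3.10.9.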

Additional observations from a re-analysis of the deposited data

Results flagged for a closer look

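In Ncf4 (1418465_at), young non-arthritic replicate 4, the 1-month-old mouse, read 11.64 where the other 3 young non-arthritic mice read 11.90 to 11.92. The gap to the nearest of them was 0.938 of the range of the group, past Dixon's critical value for a group of 4. This was 1 of 10 probe sets looked at, each at its lowest and highest mouse, in the only group of 4. Chance alone marks about 1 in 20 probe sets so looked at, and these probe sets moved together over the mice.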

How the results depend on the processing

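The count of oxidase probe sets past the threshold at equal age, 0 of 10, became 1 (1436779_at of Cybb) without the filter and 7 with array weights, where limma adjusted p-values were 0.0268 for Cybb, 0.0199 for Cyba, 0.0187 for Ncf1 and 0.0167 for Rac2. All probe sets called numbered 538 of 23805 (2.26%), against 5475 of 45037 without the filter and 4857 of 23805 with array weights. The share of calls that were higher was 80.1%, 58.7% without the filter and 66.7% after quantile normalization. Leaving out a mouse gave 0 to 1 oxidase calls, the 1 (1436779_at) without young non-arthritic replicate 2. In the other comparisons the count was 0 under each alternative run. Quantile normalization turned the sign of Ncf4 at equal age (-0.00) and in young mice (-0.15), Cyba in young mice (-0.00), Rac2 per month (0.00) and with age (0.00), and the old against young difference of arthritis effects for Cyba (0.02) and Rac2 (0.01). That difference for Rac2 was 0.08 with the mean of its probe sets. With the replicate block the count was 0, Ncf4 in young mice was -0.06 and the Rac2 difference 0.05, 29 probe sets in all passed at equal age, and Rac1 had a limma adjusted p of 0.0866. Deviations of same-numbered mice from their group means correlated at -0.53 to 0.36. This cannot decide whether replicate numbers pair the mice. Between groups of 2 mice, replicates 1 and 2 must give the same value, so few of these values are independent. Crossing the old numbers, chosen after seeing the data, gave 0 calls. Leaving out a mouse moved Ncf4 between -0.02 and 0.29 in old and -0.18 and 0.21 in young mice, and the difference of arthritis effects between -0.11 and 0.40 for Cybb, -0.08 and 0.37 for Ncf1, -0.07 and 0.32 for Ncf4, -0.07 and 0.01 for Cyba and -0.09 and 0.04 for Rac2. The cause was not tested. Groups of 2 mice limit every comparison.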
